A study of Mus musculus with 3 samples.

Results

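The NF-kB feedback genes described here are 9 genes that NF-kB itself is known to switch on: Nfkbia, Nfkbiz, Tnfaip3, Nfkb1, Nfkb2, Relb, Ier3, Icam1 and Birc3. They were taken by symbol from the 31053 genes counted, and all 9 were found. They were measured in Lineage-negative, Sca1-positive, Kit-positive (LSK) bone marrow cells, the mouse compartment that holds hematopoietic stem cells and multipotent progenitors. Of the 4 mice, 2 were wild type and 2 carry the label Helios-deficient. Helios is the zinc finger transcription factor encoded by Ikzf2. The changed part of Ikzf2, the cells in which it is changed, and the strain, age and sex of the animals are not given in the labels. Per the labels, 2500 sorted cells of each mouse were pooled into 1 droplet run, with 1 hashtag antibody for each mouse. Surface CD150, CD48, Flt3 (CD135) and CD41 were read with antibodies that carry a countable tag.

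The authors kept 3470 cells: 557 and 824 of the deficient mice and 1175 and 914 of the wild-type mice, with 5729987, 8424677, 10317599 and 8364109 unique molecular identifiers (UMIs, counted transcripts) in that order. Ikzf2 was read at 73.6 and 82.7 counts scaled to a total of 1000000 UMIs (CPM) in the deficient mice, and the wild-type mice had 70.6 and 67.7 CPM. A 3 prime count outside the changed part of a gene does not test the label. Of mature-cell genes, C1qa lay between 2.33 and 7.89 CPM and Cd3e was at 0 in all 4 mice. A list of 8 T and NK cell genes, of which 1 was at 0, summed to 239.7 to 284 CPM. S100a8, a neutrophil gene, stood at 15.4 CPM in deficient mouse 1 and between 1.55 and 3.39 CPM in the others. Igkc reached 964 CPM in deficient mouse 2 and 4038 CPM in wild-type mouse 1, against 33.3 and 34.1 CPM in the others. Contrasts of gates that hold these reads were also computed without 25 cells rich in defining mature-cell transcripts, a setting added after the data were seen. With 2 mice in each genotype, p-values measure the spread between these 4 mice only.

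NF-kB is a family of dimeric transcription factors that inhibitors of the IkB kind hold in the cytoplasm. When cytokines or microbial products activate the IkB kinases, the inhibitor is degraded, the dimers enter the nucleus, and among the first genes they induce are their own inhibitors, so that transcripts of these genes serve as a reading of recent pathway activity. In hematopoietic stem and progenitor cells the pathway is known for its part in survival and in the response to inflammation.

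Promoters of the members were drawn from RefSeq (GRCm38.p6, the build behind mm10), where 6 of 9 members had an entry: Nfkbia, Tnfaip3, Nfkb2, Ier3, Icam1 and Birc3. The 250 bases before each annotated start were searched on both strands for the 10-letter NF-kB consensus, counting overlapping matches. A match was found for 4 of these 6 members (Nfkbia, Tnfaip3, Nfkb2 and Ier3), while 8.23% of all genes and 7.25% of all 32851 windows in that collection held one. The windows of Nfkbia, Tnfaip3 and Ier3 are shown because they carry the letters that the pathway's factors are known to read in genes of this kind, and that of Icam1, which had no match to the exact pattern, is shown beside them. The Icam1 window holds ggaaattcct, which departs from the pattern at its last base only. No match therefore does not mean that a window lacks a sequence close to the consensus. Each runs 5′ to 3′ on the strand of its gene up to the base before the start, and capitals mark the matches.
Nfkbia (chr12:55492648-55492897, minus strand): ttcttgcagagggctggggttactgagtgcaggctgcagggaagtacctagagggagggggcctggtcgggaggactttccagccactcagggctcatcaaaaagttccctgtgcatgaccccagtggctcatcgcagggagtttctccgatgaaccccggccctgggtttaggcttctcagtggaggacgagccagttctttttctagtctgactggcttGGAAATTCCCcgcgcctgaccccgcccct
Tnfaip3 (chr10:19015411-19015660, minus strand): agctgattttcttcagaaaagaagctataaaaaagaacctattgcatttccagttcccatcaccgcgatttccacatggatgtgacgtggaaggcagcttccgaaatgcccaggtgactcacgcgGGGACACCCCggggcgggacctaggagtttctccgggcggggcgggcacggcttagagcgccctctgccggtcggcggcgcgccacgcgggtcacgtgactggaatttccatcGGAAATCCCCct
Ier3 (chr17:35821463-35821712, plus strand): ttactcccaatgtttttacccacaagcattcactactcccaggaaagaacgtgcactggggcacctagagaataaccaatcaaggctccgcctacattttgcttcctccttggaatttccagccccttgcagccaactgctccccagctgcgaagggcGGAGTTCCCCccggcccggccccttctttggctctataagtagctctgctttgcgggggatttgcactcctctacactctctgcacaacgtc
Icam1 (chr9:21015690-21015939, plus strand): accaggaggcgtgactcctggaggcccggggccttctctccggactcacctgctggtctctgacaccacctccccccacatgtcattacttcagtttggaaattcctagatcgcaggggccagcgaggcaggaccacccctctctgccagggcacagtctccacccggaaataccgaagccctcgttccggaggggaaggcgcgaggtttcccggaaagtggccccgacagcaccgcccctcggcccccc
The match of Nfkbia, GGAAATTCCC, begins at position -29 counted from the start. Tnfaip3 holds GGGACACCCC at position -125 and GGAAATCCCC at position -12, and Ier3 holds GGAGTTCCCC at position -92. These are matches of letters and were not measured as binding sites in this experiment.

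In RefSeq on the same build Nfkbia spans chr12:55489409-55492647, Nfkbiz chr16:55811375-55838954, Tnfaip3 chr10:19000910-19015410 and Nfkb1 chr3:135584655-135691969. Nfkb2 spans chr19:46300994-46312400, Relb chr7:19606217-19629438 and Ier3 chr17:35821713-35822911. Icam1 (chr9:21015940-21028814) and Birc3 (chr9:7847468-7873205) lie on the same chromosome. Gm46827 overlaps Nfkb1, and 4833438C02Rik and Psd overlap Nfkb2. How the authors' counting treated strand is not given in the sources used here, so reads of those overlaps cannot be told apart. Levels are not compared between genes below.

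Between genotypes, over all kept cells, none of the 9 members was called. Nfkbia encodes IkB-alpha, the inhibitor that is degraded and resynthesised in each round of activation. Deficient mice 1 and 2 had 126 and 114 CPM, wild-type mice 1 and 2 had 119.8 and 115 CPM, and the groups overlapped. Deficient over wild type, it differed by 0.03 on the log2 scale (SE 0.07, 95% interval -0.13 to 0.18, edgeR adjusted p = 0.944).

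Nfkbiz encodes IkB-zeta, a nuclear IkB that acts with p50 on a second wave of targets. It was counted 20 and 22 times in the deficient mice and 47 and 52 times in the wild-type mice, which is 3.49, 2.61, 4.56 and 6.22 CPM. Both deficient mice lay below both wild-type mice, with a log2 fold change of -0.83 (SE 0.29, 95% interval -1.44 to -0.23, edgeR adjusted p = 0.258, unadjusted p = 0.00911). Over 12 other settings, among them equal cells of each RNA cluster per mouse, the value ran from -1.17 to -0.60 and its adjusted p from 0.0936 to 1. RNA cluster 4, where Nfkbiz was at its highest as given below, held 41 and 66 cells of the deficient mice. It held 192 and 170 cells of the wild-type mice.

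Tnfaip3 encodes A20, the ubiquitin-editing enzyme that dampens signalling upstream of the IkB kinases. It was measured at 3.49, 3.09, 3.59 and 4.18 CPM in deficient mice 1 and 2 and wild-type mice 1 and 2. Both deficient mice were lower, by an amount within the error of the fit (log2 fold change -0.24, SE 0.29, edgeR adjusted p = 0.838).

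Of the subunit genes, Nfkb1 (precursor of p50) was measured at 92.7, 102, 104 and 95.5 CPM in the same order of mice, and the groups overlapped (log2 fold change -0.03, 95% interval -0.20 to 0.13, edgeR adjusted p = 0.931). Nfkb2, precursor of p52 in the non-canonical branch of the pathway, was measured at 7.85, 6.53, 9.79 and 9.80 CPM. Both deficient mice lay below both wild-type mice (log2 fold change -0.46, SE 0.19, 95% interval -0.86 to -0.06, edgeR adjusted p = 0.388, unadjusted p = 0.0260). Relb, the partner of p52, gave 7.16, 6.41, 7.95 and 8.37 CPM, also without overlap, and differed by -0.27 (SE 0.20, edgeR adjusted p = 0.705).

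Among the target genes, Ier3, an immediate early gene linked to cell survival, was measured at 37.3, 25.9, 33.7 and 30.8 CPM, with the wild-type mice between the deficient ones. Icam1, the adhesion molecule bound by leukocyte integrins, gave 24.4, 25.0, 33.5 and 23.8 CPM, and wild-type mouse 1 alone stood higher than the rest. Birc3, which encodes the ubiquitin ligase cIAP2, gave 12.6, 12.8, 16.5 and 14.5 CPM. Its groups did not overlap, and its log2 fold change was -0.29 (SE 0.15, 95% interval -0.60 to 0.02, edgeR adjusted p = 0.525). Those of Ier3 and Icam1 were -0.06 (adjusted p = 0.931) and -0.22 (adjusted p = 0.661) in the same edgeR fit.

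**Figure D1:**
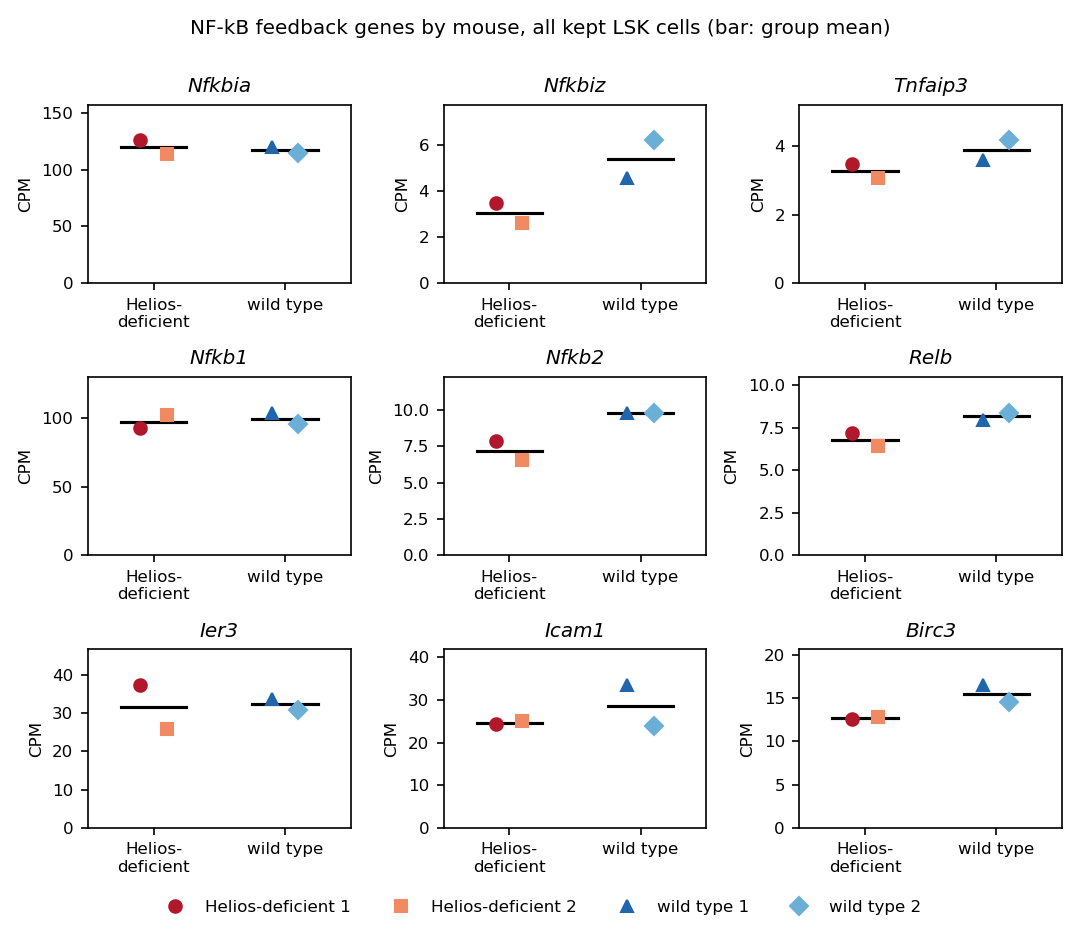
CPM of each of the 9 genes in all kept cells of each mouse (vertical axis, starting at 0), with the 2 mice labelled Helios-deficient on the left, the 2 wild-type mice on the right and a bar at each group's mean. Nfkbia lies between 114 and 126 CPM in all 4 mice, while Nfkbiz and Nfkb2 are lower in both deficient mice by differences that did not pass the adjusted threshold.

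Counted together, 0 of 9 members passed an adjusted p of 0.05 with edgeR, where 0.794% of the 11592 genes tested did. DESeq2 also called 0 members. At an unadjusted p under 0.05 there were 2 members, Nfkbiz and Nfkb2, where 10.4% of all genes tested lay under that value. The log2 fold change was below 0 for 8 of 9 members and for 50.1% of all genes, with a median of -0.24 over the members. In 5 of 9 members both deficient mice lay below both wild-type mice, which 21.3% of all genes did, and in 0 of 9 above both, which 19.9% did. An earlier look at these data had shown a lower level of NF-kB target genes, so these counts are a description and no independent support for a direction.

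The rest of the pathway was read in lists of genes that are no members. Of 20 ligand and receptor genes, 10 could be tested between genotypes and 1 was called: Ltb, which encodes the membrane ligand lymphotoxin beta, fell from 174 ± 2.78 CPM in wild-type mice to 116 ± 1.19 CPM in deficient mice (SD, n = 2 each), which is -0.58 on the log2 scale (SE 0.07, edgeR adjusted p = 3.9e-05). None of 27 adaptors and kinases, 18 other inhibitors or the 2 other subunits Rela and Rel was called by edgeR or DESeq2, with 3, 1 and 0 of them at an unadjusted p under 0.05. Of all genes tested, 0.794% were called by edgeR and 10.4% had such an unadjusted p. Of 24 other target genes tested, 1 was called: Ccl3, a chemokine gene, fell from 27.3 ± 4.41 to 16.3 ± 0.812 CPM (log2 fold change -0.73, SE 0.14, edgeR adjusted p = 0.0120), a call that DESeq2 did not make. The mix of RNA states differed between the genotypes. Cluster 4 of the RNA clusters below, with Ccl3 among its leading genes, held 41 and 66 of the 557 and 824 deficient cells. Of the 1175 and 914 wild-type cells it held 192 and 170. The fall of Ccl3 is given here without its value on equal cells of each cluster. Of 27 immediate early and dissociation stress genes, 3 fell, namely Dusp2 (-0.51), Btg2 (-0.72) and Zfp36 (-0.76), at edgeR adjusted p = 0.00145, 0.0113 and 0.0373. DESeq2 called Dusp2 alone of these 3 (adjusted p = 0.00356, against 0.170 for Btg2 and 0.623 for Zfp36). These genes respond to handling of cells as well as to signals, and their part in the values of the members was not tested.

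Surface protein separates LSK cells in a way that does not use their RNA. CD150 (Slamf1) and CD48 are the markers by which stem cells (CD150 high, CD48 low) are commonly told from multipotent progenitors. Cells were gated on the raw antibody tag counts: CD48 at or under 80 was low and above 151 high, and CD150 at or under 69 was low and above 88 high, the lower and upper tertiles. This gave 383 CD48-low CD150-high cells, 418 CD48-low CD150-low cells, 415 CD48-high CD150-high cells and 324 CD48-high CD150-low cells, and left 1930 cells in none. In the order just given, Procr, a stem cell gene, stood at 75.4, 80.8, 18.6 and 17.0 CPM pooled over mice, and Cd48 RNA at 8.85, 56.3, 261 and 327 CPM. Slamf1 RNA was high in the first gate alone (25.2 CPM, against 2.85, 4.54 and 2.28), so CD150-high in the CD48-high gate is a statement on the tag and not on the transcript.

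Nfkbia was lower in both CD48-high gates than in CD48-low CD150-high cells, in every mouse. CD48-low CD150-high cells of deficient mice 1 and 2 and wild-type mice 1 and 2 held it at 220.0, 157, 161 and 164 CPM. In CD48-high CD150-high cells it was measured at 106, 77.9, 85.7 and 94.8 CPM in the same order, and in CD48-high CD150-low cells at 64.9, 117, 97.3 and 98.0 CPM. The lowest mouse of the first gate stood above the highest mouse of both others. The log2 fold change was -0.90 (SE 0.11, 95% interval -1.12 to -0.69, edgeR adjusted p = 7.0e-11) in the first of these contrasts and -0.80 (SE 0.11, 95% interval -1.02 to -0.58, edgeR adjusted p = 7.1e-09) in the other, lower in 4 of 4 mice in each.

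In CD48-low CD150-low cells Nfkbia was not called. It stood there at 161, 148, 149 and 161 CPM in deficient mice 1 and 2 and wild-type mice 1 and 2, overlapping the values of CD48-low CD150-high cells. The log2 fold change was -0.17 (SE 0.11, 95% interval -0.39 to 0.05, edgeR adjusted p = 0.420). With the tags split at their medians it was called lower, at -0.24 (edgeR adjusted p = 0.0240), the 1 of 14 other settings that called it, over which the adjusted p ran from 0.0240 to 0.998. The order of the mean levels was thus CD48-low CD150-high (175 ± 29.9 CPM, SD, n = 4), CD48-low CD150-low (155 ± 7.33), CD48-high CD150-low (94.4 ± 21.8) and CD48-high CD150-high (91.0 ± 12.0), where the first pair and the last pair of neighbours overlapped between mice and the middle pair did not.

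**Figure D2:**
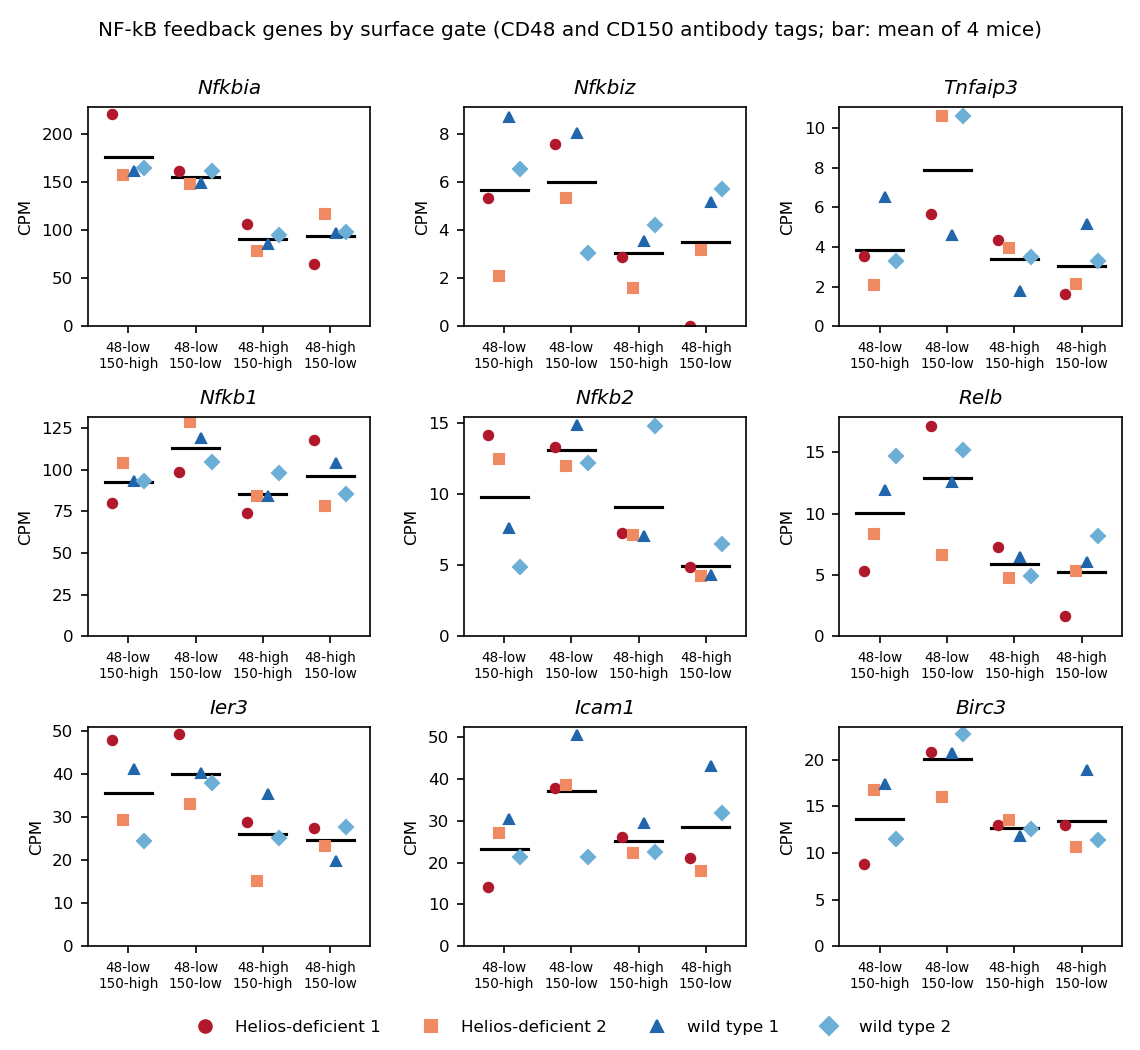
CPM of each of the 9 genes (vertical axis, starting at 0) in the 4 surface gates (horizontal axis, CD48 and CD150 tags low or high), with 1 point for each mouse and a bar at the mean of 4 mice. The 4 Nfkbia points of CD48-low CD150-high cells, from 157 to 220.0 CPM, lie above all points of both CD48-high gates, from 64.9 to 117 CPM.

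Other measures moved with these gates. The median cell had 6989 UMIs in CD48-low CD150-high and 6166 in CD48-low CD150-low cells, but 11319 and 11431 in CD48-high CD150-high and CD48-high CD150-low cells. Counted per cell and not as CPM, Nfkbia gave 1.36 UMIs in CD48-low CD150-high cells, 1.03 in CD48-low CD150-low, 1.09 in CD48-high CD150-high and 1.19 in CD48-high CD150-low cells. The difference in CPM is thus one of share of all transcripts. Deficient mice 1 and 2 and wild-type mice 1 and 2 had 1.88, 1.35, 1.19 and 1.22 UMIs per CD48-low CD150-high cell. In CD48-high CD150-high cells they had 1.43, 1.14, 0.912 and 1.13, lower in each mouse. In CD48-high CD150-low cells they had 0.976, 1.59, 1.04 and 1.15, higher in deficient mouse 2 and lower in the others. Fewer Nfkbia copies per cell and more of other transcripts were not separated by a test. The G2 and M phase list summed to 3336 and 2954 CPM in the CD48-low gates (CD150-high, then CD150-low) and to 5749 and 5230.3 CPM in the CD48-high gates (same order).

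Depth and cell cycle were therefore held closer in settings chosen after these differences were seen. In cells at or under the median cell cycle share, Nfkbia differed by -0.52 (edgeR adjusted p = 0.0187) and -0.87 (adjusted p = 5.1e-04) in CD48-high CD150-high and CD48-high CD150-low cells, although deficient mouse 1 then had 10 and 3 cells in these gates. In cells of 6000 to 10000 UMIs the values were -0.58 (edgeR adjusted p = 0.0111) and -0.40 (adjusted p = 0.171), so that the second contrast was no longer called. That band left 143 and 105 cells in these gates, with 10 and 7 of deficient mouse 1. With every cell thinned to 4000 UMIs the values were -1.09 (edgeR adjusted p = 5.4e-08) and -1.12 (adjusted p = 1.2e-07). Thinning draws from each cell's own UMIs and leaves the share of Nfkbia to be found in that cell unchanged. It therefore cannot separate the difference from depth. Gates from centred log-ratios of the tags left 74 CD48-high CD150-high cells and ended the call there (-0.68, edgeR adjusted p = 0.243). Over 14 other settings in each contrast the value ran from -1.09 to -0.52 (adjusted p from 2.0e-15 to 0.243) and from -1.12 to -0.40 (adjusted p from 4.7e-13 to 0.171), with 13 of 14 called in both. The thinned cells are among the settings called. Wild-type mouse 1 gave nearly all the Igkc of CD48-high CD150-high cells (19695 CPM there). Without that mouse the value in this gate was -0.92, and without the 25 cells rich in mature-cell transcripts it was -0.92.

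Apart from Nfkbia, 6 members could be tested between gates and none was called. Nfkbiz and Tnfaip3 did not reach the minimum count in sums of single gates. The count of 1 of 7 called stood beside 21.0% of the 8275 genes tested (10.1% lower) in CD48-high CD150-high and 22.8% (11.1% lower) in CD48-high CD150-low cells, and DESeq2 called the same number. At an unadjusted p under 0.05 there were 2 and 3 of 7 members, against 31.1% and 32.5% of all genes. Nfkbia was also the one member whose 4 values in the CD48-high gate lay below all 4 of the other gate, as 10.7% and 12.0% of all genes did.

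Relb was measured in CD48-low CD150-high cells at 5.32, 8.36, 11.9 and 14.7 CPM, deficient mice first. In CD48-high CD150-low cells it was measured at 1.62, 5.29, 6.03 and 8.16 CPM in that order, lower in each mouse than in the other gate of the same mouse, with overlap between the gates. Its log2 fold changes were -0.83 (SE 0.40, edgeR adjusted p = 0.141) in CD48-high CD150-high and -0.83 (SE 0.42, adjusted p = 0.158) in CD48-high CD150-low cells. Splitting the tags at their medians in place of tertiles brought the second value to -0.84 and an adjusted p of 0.0219, within a range of 0.0219 to 0.365 over 10 settings.

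Ier3 in CD48-low CD150-high cells was measured at 47.9, 29.3, 41.3 and 24.5 CPM, and in CD48-high CD150-low cells at 27.6, 23.3, 19.8 and 27.8 CPM. Wild-type mouse 2 went up where the other mice went down. The log2 fold change was -0.51 (SE 0.21, 95% interval -0.93 to -0.10, edgeR adjusted p = 0.0647), and 4 of 14 other settings called it, at values down to -0.72 without wild-type mouse 2 (adjusted p from 3.1e-04 to 1 over the 14). Nfkb2 gave -0.94 in this contrast (SE 0.43, edgeR adjusted p = 0.109) and -0.06 in CD48-high CD150-high cells (adjusted p = 0.939). With tertiles within each mouse its first value was -1.14 (edgeR adjusted p = 0.0473). That adjusted p ran from 0.0473 to 0.452 over the 9 other settings in which Nfkb2 was tested. Ier3 in CD48-high CD150-high cells gave -0.38 (edgeR adjusted p = 0.179), and -0.48 (adjusted p = 0.00357) with the tags split at their medians, the 1 of 14 settings that called it (adjusted p up to 0.971).

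Icam1 and Nfkb1 followed another order. Icam1 was measured at 37.9, 38.6, 50.6 and 21.3 CPM in CD48-low CD150-low cells and at 14.2, 27.2, 30.4 and 21.3 CPM in CD48-low CD150-high cells, higher in 3 of 4 mice and level in wild-type mouse 2. The log2 fold change was 0.62 (SE 0.23, 95% interval 0.17 to 1.06, edgeR adjusted p = 0.0721), and without wild-type mouse 2 it was 0.74 (adjusted p = 0.0383, in a range of 0.0383 to 0.944 over 14 settings). Nfkb1 gave 0.28 in the same contrast (SE 0.13, edgeR adjusted p = 0.195) and -0.08 and 0.04 in the CD48-high gates (adjusted p = 0.735 and 0.857), with 95% intervals of -0.32 to 0.16 and -0.20 to 0.29.

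CD48-low CD150-low cells thus had 0 of 7 members called against CD48-low CD150-high cells, beside 8.48% of all genes. DESeq2 called 0 as well, and 2 of 7 had an unadjusted p under 0.05 against 19.2% of all genes. In no member did all 4 mice lie below those of the other gate, as 5.21% of all genes did. The log2 fold change was below 0 for 1 of 7 members, Nfkbia, with a median of 0.28 over the members. It was below 0 for 4065 of the 8275 genes tested, with a median of 0.01. Tnfaip3, too low to be tested, was read 22 times in 418 CD48-low CD150-low cells (5.68, 10.6, 4.60 and 10.6 CPM) and 12 times in 383 CD48-low CD150-high cells (3.55, 2.09, 6.52 and 3.27 CPM), higher in 3 of 4 mice.

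**Figure D3:**
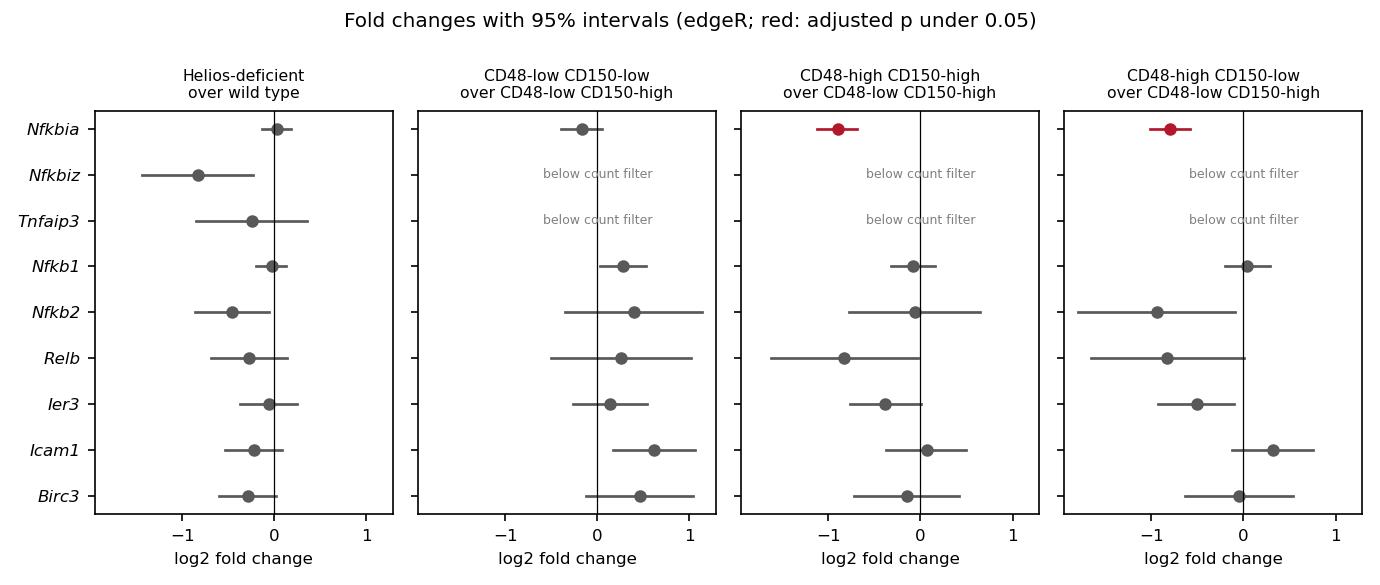
Log2 fold change (horizontal axis) with its 95% interval from edgeR for each member in 4 comparisons: deficient over wild-type mice in all kept cells, and 3 surface gates over CD48-low CD150-high cells. The intervals in red passed the adjusted threshold, which are those of Nfkbia in both CD48-high gates, at -0.90 and -0.80.

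The other pathway genes, tested in the same gate contrasts, held changes in both directions. Of all genes, edgeR called 21.0% in CD48-high CD150-high cells (10.1% lower) and 22.8% in CD48-high CD150-low cells (11.1% lower). The counts below are to be read beside these shares. Of 15 other inhibitors tested, 3 fell in both CD48-high gates: Tnip3, a partner of A20 (-1.21 and -1.44), Irak3, a brake on receptor signalling (-0.93 and -1.07), and Rnf11, part of the A20 complex (-0.62 and -0.68). Their edgeR adjusted p values in CD48-high CD150-low cells were 8.6e-09, 0.00217 and 0.00165. DESeq2 called all 3 there and 2 of 3 in CD48-high CD150-high cells, where Irak3 had an adjusted p of 0.0938. Ltb fell from 219 ± 35.6 to 65.3 ± 34.1 CPM (SD, n = 4) in CD48-high CD150-low cells (log2 fold change -1.66, edgeR adjusted p = 1.4e-07), and Il1r1, the interleukin 1 receptor, rose from 3.15 ± 2.27 to 17.0 ± 5.09 CPM (2.44, adjusted p = 3.3e-06). Of 19 other targets tested there, 6 rose and 3 fell, with Ccl3 at 1.89 (adjusted p = 5.6e-06) and Tnfaip2 at -1.77 (adjusted p = 7.3e-06) in the edgeR fit, and DESeq2 called 7 of the list. Of 21 immediate early and stress genes, 3 rose and 5 fell (6 called by DESeq2), among them Myc at 0.68 and Jund at -0.57, where Jund stood at 0.02 in cells at or under the median cell cycle share. Of 21 adaptors and kinases 1 rose, Tab2 at 0.63 (adjusted p = 0.0247, not called by DESeq2 at 0.144), and neither Rela nor Rel was called (adjusted p = 0.334 and 0.290 with edgeR).

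Cut into 5 equal classes of the CD48 tag count, the kept cells showed Nfkbia at 162, 147, 121, 105 and 87.9 CPM pooled over mice, from the lowest tags (4 to 64) to the highest (192 to 559). In the lowest class the mice lay between 143 and 192 CPM and in the highest between 72.5 and 96.4 CPM, without overlap. Relb stood at 12.0, 10.9, 7.06, 7.63 and 3.55 CPM in the same order, between 10.2 and 13.7 CPM in the mice of the lowest class and between 2.11 and 4.75 CPM in those of the highest. Ier3 stood at 40.8, 38.1, 35.8, 26.8 and 24.1 CPM, its mice between 32.2 and 49.4 CPM in the lowest class and between 17.9 and 29.5 CPM in the highest. Nfkb1 showed no such slope, at 98.6, 106, 102, 104 and 90.8 CPM. The median UMI count of a cell went over the same classes from 6360.0 to 12982.5, and tag count and depth were not separated here. Counted as UMIs over 694 cells each, Nfkbia stood at 793, 783, 735, 731 and 841 and Ier3 at 200, 203, 218, 186 and 231. Relb stood at 59, 58, 43, 53 and 34 UMIs. The slopes of Nfkbia and Ier3 are thus ones of share of all transcripts. These levels are a description and were not tested.

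**Figure D4:**
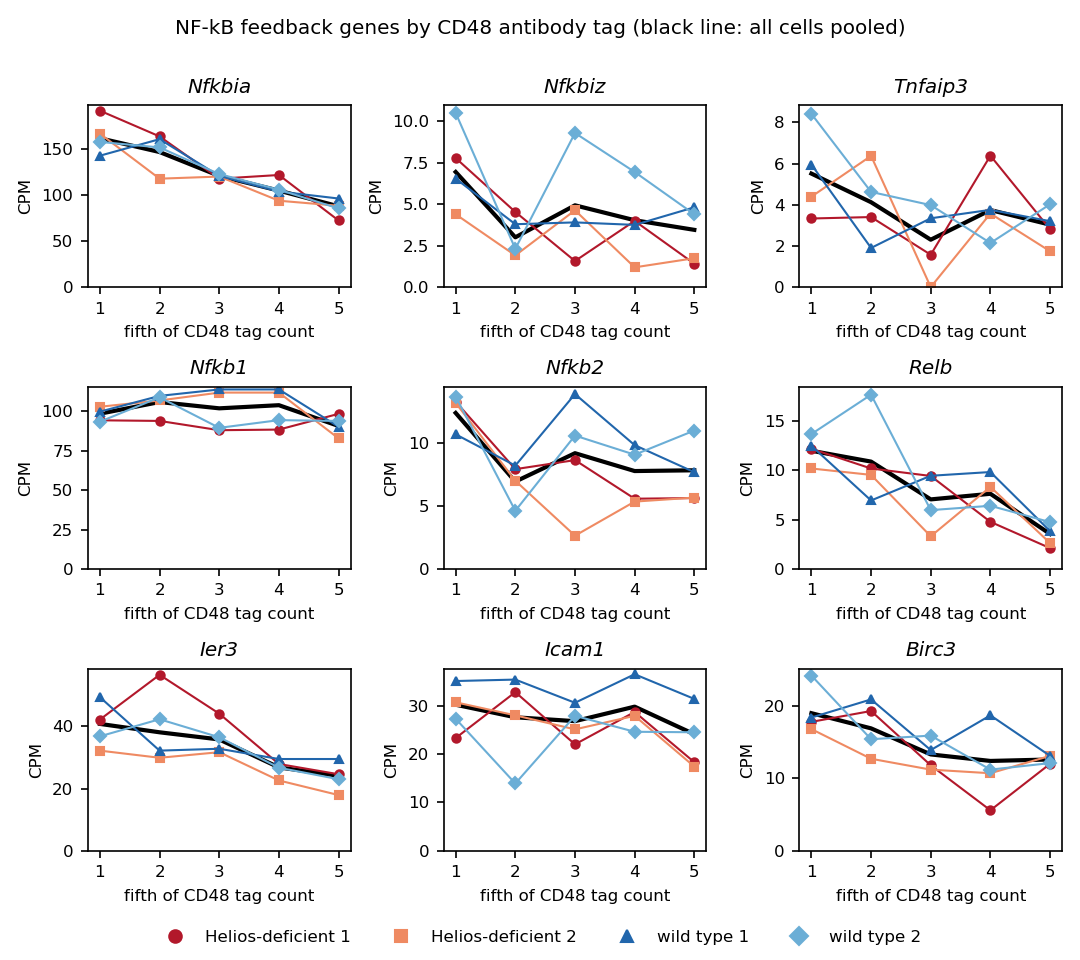
CPM of each member (vertical axis, starting at 0) over 5 classes of the kept cells by CD48 tag count (horizontal axis, 694 cells each), with 1 line for each mouse and a black line for all cells pooled. Nfkbia goes from 162 to 87.9 CPM and Relb from 12.0 to 3.55 CPM, while Nfkb1 stays between 90.8 and 106 CPM. In UMIs, Nfkbia was counted 793 times in the lowest class and 841 times in the highest.

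The genotype difference was also read inside surface gates, so that populations of like surface protein were compared. In CD48-low CD150-high cells Nfkbia differed by 0.15 between genotypes (95% interval -0.15 to 0.45), in CD48-low CD150-low cells by -0.02 (-0.32 to 0.28) and in CD48-high CD150-high cells by -0.02 (-0.36 to 0.31). No member was called by edgeR or DESeq2 in these gates, of 5, 6 and 5 that could be tested, and none had an unadjusted p under 0.05. Over all genes 0.109%, 0.225% and 0.457% were called, and 5.89%, 5.43% and 8.73% had such an unadjusted p. CD48-high CD150-low cells were not tested alone because deficient mouse 1 had 41 of them. A test of the difference itself, the genotype effect in CD48-high CD150-low cells minus that in CD48-low CD150-high cells, gave -0.14 for Nfkbia (SE 0.23, 95% interval -0.61 to 0.32, edgeR adjusted p = 0.994). It called 0 of 7 members with edgeR and with DESeq2, where edgeR called 0.0363% of all genes, and no member had an unadjusted p under 0.05, as 5.04% of all genes did.

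Clusters of the RNA, built without the members and the pathway lists, gave a finer division into 11 states. Their levels are a description, since the same cells' RNA defined them. Cluster 3 (543 cells) is left unnamed: it held the stem cell genes Procr and Mecom at 122 and 118 CPM, but its leading genes by fold were Igkc, Ighm and Cd74. A list of 16 stem cell genes summed to at most 1384 CPM in any mouse of another cluster. It reached 2072, 2113, 1929 and 1955 CPM in cluster 3, in deficient mice 1 and 2 and wild-type mice 1 and 2. The B cell list (3 of 10 genes at 0) summed there to 76.1, 7551, 36169.5 and 97.0 CPM in deficient mice 1 and 2 and wild-type mice 1 and 2, and the plasma cell list (none of 6 at 0) to 161, 1451, 2594 and 128 CPM. Without 6 of its cells, those with defining mature-cell transcripts, Igkc stood between 25.4 and 40.7 CPM in the 4 mice, Nfkbia at 193 CPM (179.9 to 209 over the mice), Relb at 18.5 and Birc3 at 22.0 CPM. With all its cells it held Nfkbia at 186 to 209 CPM in the 4 mice (197 CPM pooled), above every mouse of clusters 1, 2 and 4 to 8. Cluster 9 (135 cells, unnamed) was next at 186 CPM, with its mice from 134 to 229.6 CPM overlapping cluster 3. Then came cluster 1 (731 cells, unnamed, with Ifit1 and Rsad2 as its leading genes) at 129 CPM, cluster 5 (270 cells, led by Notch2) at 127, cluster 4 (469 cells, lymphoid-primed-like) at 117 and cluster 6 (243 cells, megakaryocyte-primed-like) at 116 CPM, which overlapped one another between mice. Cluster 8 (147 cells, led by mitotic genes such as Ube2c) stood at 99.0, cluster 7 (194 cells, unnamed) at 90.0 and cluster 2 (634 cells, led by the S phase genes Ccne2 and Rrm2) at 84.8 CPM, its mice between 63.1 and 99.6 CPM. The small clusters 10 (57 cells, unnamed) and 11 (47 cells, erythroid-primed-like) gave 63 and 36 Nfkbia UMIs, 146 and 52.4 CPM pooled.

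The other members had orders of their own over the clusters. Among clusters with at least 20 cells in every mouse, Relb was also highest in cluster 3, at 17.9 CPM (12.2 to 28.1 over the mice), and lowest in cluster 6 at 1.92 CPM (0 to 3.70). Nfkb2 stood at 14.0 CPM in cluster 3 (11.4 to 16.7) and 2.41 CPM in cluster 7 (0 to 6.12). Birc3 stood at 21.5 CPM in cluster 3 (19.0 to 25.3) and at 8.22 CPM in cluster 2 (4.57 to 10.5), without overlap between them. Nfkbiz was at its highest in the lymphoid-primed-like cluster 4 at 9.44 CPM (6.56 to 10.5), from 31 UMIs, and at 1.92 CPM in cluster 6, from 6 UMIs.

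Ier3 was highest in cluster 5, at 53.6 CPM (39.8 to 69.5), and lowest in cluster 7, at 11.3 CPM (4.34 to 23.6). Icam1 was highest in cluster 9, at 46.9 CPM (28.9 to 58.5), and low in the megakaryocyte-primed-like cluster 6, at 7.99 CPM (3.70 to 10.2), and the erythroid-primed-like cluster 11, at 4.37 CPM from 3 UMIs. Nfkb1 ranged from 83.8 CPM in cluster 6 to 119 CPM in cluster 8 among clusters with at least 20 cells in every mouse. Tnfaip3 was read between 4 and 25 times in each of clusters 1 to 9 and gave 1.96 to 5.59 CPM there, which places no order on them.

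**Figure D5:**
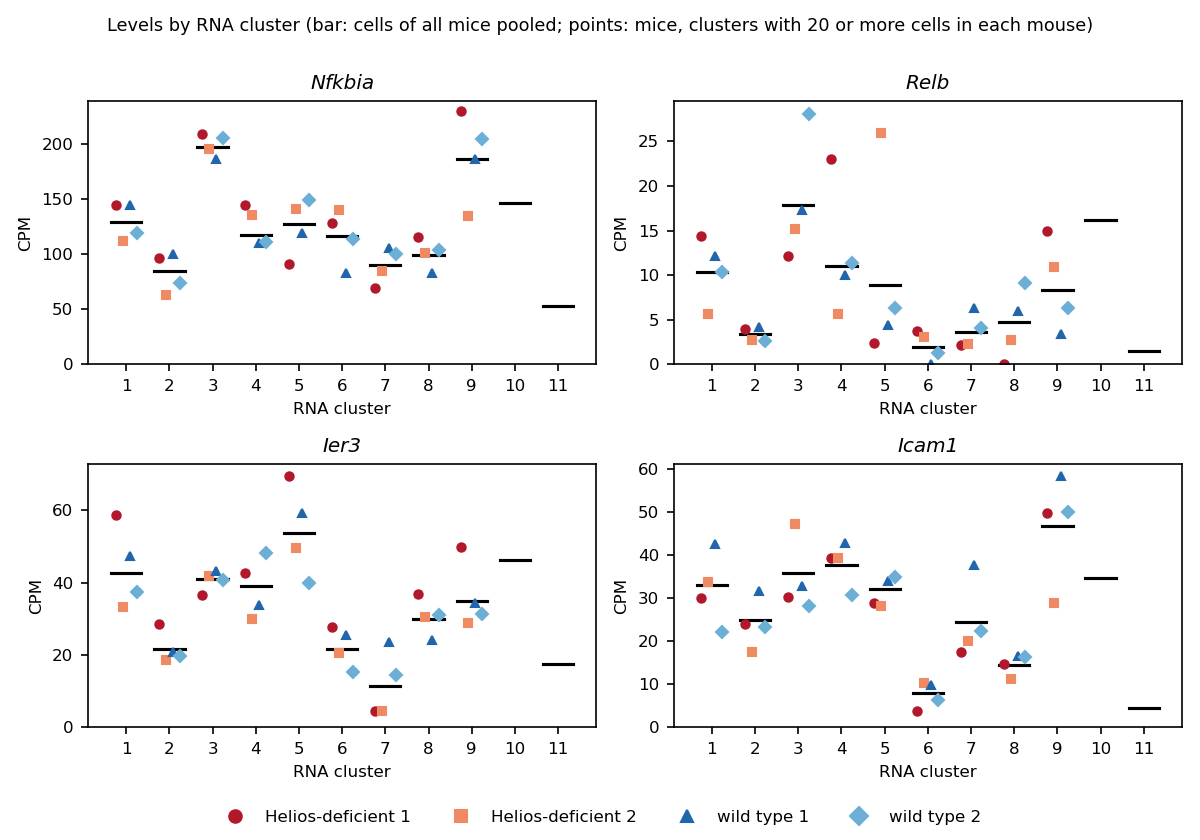
CPM of Nfkbia, Relb, Ier3 and Icam1 (vertical axes, starting at 0) in each of the 11 RNA clusters (horizontal axis), with a bar for all cells pooled and points for the 4 mice in clusters 1 to 9. Nfkbia is high in clusters 3 and 9 (197 and 186 CPM), Ier3 in cluster 5 (53.6 CPM), and Icam1 is low in clusters 6 and 11 (7.99 and 4.37 CPM).

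Inside clusters 1, 2 and 3, which had 50 or more cells in every mouse, the genotypes did not differ in any member by edgeR or DESeq2. Of 7, 6 and 7 members tested none had an unadjusted p under 0.05, as 5.74%, 6.29% and 5.67% of all genes did, and 0.192%, 0.252% and 0.168% of all genes were called. Nfkbia differed there by -0.08 (95% interval -0.34 to 0.18), -0.15 (-0.49 to 0.19) and -0.00 (-0.24 to 0.23). In clusters 4 to 9, added because every mouse had at least 20 cells, no member passed the adjusted threshold, while 0.0941%, 0.114%, 0.155%, 0.697%, 0.0461% and 0.172% of all genes did. Of 22 member tests there, 3 had an unadjusted p under 0.05, which 5.64%, 4.29%, 5.33%, 11.6%, 4.34% and 5.29% of all genes had in clusters 4 to 9 in order: Nfkbia in cluster 4 (log2 fold change 0.34, unadjusted p = 0.0476, edgeR adjusted p = 0.877) and cluster 6 (0.46, 0.00680 and 0.556), and Nfkb1 in cluster 7 (-0.51, 0.0210 and 0.321).

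Read as cells with at least 1 UMI after each cell was thinned to 4000 UMIs, Nfkbia was found in 47.0% of CD48-low CD150-high cells (43.1% to 53.8% over the mice) and in 38.2% of CD48-low CD150-low cells (30.7% to 45.3%). The share was 26.0% in CD48-high CD150-high cells (22.4% to 34.0%) and 24.7% in CD48-high CD150-low cells (12.2% to 29.4%). Thinning left out cells under that depth and kept 368, 390, 412 and 324 cells of the gates in this order. Unthinned, the shares were 64.8%, 50.5%, 56.4% and 56.8% in the same order of gates, so that CD48-low CD150-low cells, the shallowest, then stood below both CD48-high gates. No cell type in this sort is known to lack Nfkbia, so a background from free RNA was not set. Any of the 9 members was found in 69.4% of the 3388 thinned cells, between 67.0% and 71.1% over the 4 mice.

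Over 38 sums of 1 cluster in 1 mouse with at least 20 cells each, Pearson's r of log2(CPM + 1) between 2 members ran from -0.06 (Tnfaip3 with Nfkb2) to 0.53 (Relb with Icam1). It was 0.52 for Nfkb1 with Ier3, 0.51 for Nfkbia with Relb, 0.50 for Nfkbia with Ier3 and with Birc3, and 0.01 for Tnfaip3 with Relb. Of 7749 other genes with a mean of at least 10 CPM, those most like the mean z-score of the 9 members were Ttc14 (r = 0.85), Crlf3 and Pik3ip1 (0.83 each), Pink1 (0.82), Rpl24, Gpsm3 and Ypel3 (0.81 each), Rbbp6 (0.80), and mt-Co1 and Rnf114 (0.79 each). Those least like it were Tipin (-0.88), Smc6 (-0.87), and Ppia and Ptma (-0.85 each). The sums share the run, 4 mice and the depth of their clusters, so these values are descriptions.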

How the data were processed

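The counts analysed were UMI counts per gene, antibody tag and hashtag and barcode, deposited by the authors as 1 raw matrix. Per the submitters' processing notes Cell Ranger, Seurat 3.0.0 and the build mm10 were used, without roles, and per the file headers the matrix came from software 3.0.2. Libraries followed the 3 prime v2 droplet protocol, per the labels. The authors' deposited lists gave the hashtag call of each of 4108 barcodes (3842 with a single mouse) and the 3470 barcodes they kept. Their filters and doublet calling are not given in the sources used here. Doublets between mice were left out with the hashtag calls, doublets within a mouse were not searched for. Genotype was taken from the hashtag that the labels give for each mouse.

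UMIs were summed per mouse, or per mouse and gate or cluster, and tested with edgeR 4.0.16 (quasi-likelihood, robust, TMM, filterByExpr; R 4.3.3) over all genes that passed the count filter, with Benjamini-Hochberg adjusted p at 0.05. Gates were tested in 1 fit with the mouse as a block. DESeq2 1.42.0, no count filter, no robust option, leaving out each mouse, other cell sets and other gates were the alternatives. CPM is the count scaled to a total of 1000000 UMIs of the summed cells. Clusters came from Pearson residuals (theta 100) of 1500 variable genes, 30 components, 20 neighbours and Leiden resolution 0.5, without the members, the pathway, stress and cell cycle lists, sex-linked and mitochondrial genes and 92 genes called between genotypes. A cluster was named from marker lists where its leading genes allowed, with a marker of the type among the first 3. The fits were also run on simulated counts that held no effect of the mouse. That run therefore does not cover gates that share a mouse.

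Named genes are all 9 members, up to 4 genes of each pathway list with the smallest p in the genotype comparison and in CD48-high CD150-low against CD48-low CD150-high cells, and the 10 genes most like the members. The genes least like the members fall outside this rule and were named after their values were seen. The members, lists and tests were chosen with earlier results of these data known. Counts limit precision: Nfkbia rests on 3883 UMIs and Nfkbiz on 141.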

Additional observations from a re-analysis of the deposited data

How the results depend on the processing

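The number of all genes called was 92 between genotypes (35 with DESeq2, 31 with equal cells of each cluster, 565 without deficient mouse 2), 1735 in CD48-high CD150-high (DESeq2 992, lowest 432), 1887 in CD48-high CD150-low (DESeq2 1166, lowest 489) and 702 in CD48-low CD150-low cells (DESeq2 328, lowest 46). In the 3 gates and clusters 1 to 3 compared between genotypes it was 8 to 39, and 1 to 15 with DESeq2, and in clusters 4 to 9 it was 3 to 41. Between genotypes no member was called under any of the 12 settings, and signs changed for Nfkbia (-0.01 with all single-mouse barcodes, -0.07 with equal cells of each gate), Nfkb1 (0.04 with equal cells of each cluster) and Ier3 (0.06 and 0.12 in those 2 settings). Of list genes, Tnfrsf1a turned to 0.01 with equal cells of each cluster, and Il1r1 to -0.25 and Nlrc3 to 0.09 without cells holding mature-cell list transcripts. Leaving out each mouse moved Nfkbia from -0.05 to 0.10, Nfkb1 from -0.11 to 0.03, Ier3 from -0.32 to 0.21 and Icam1 from -0.43 to 0.06. Against CD48-low CD150-high cells, CD48-high CD150-high cells had 0 members called with centred log-ratios and 2 with a split at the median (1 under each left-out mouse). CD48-high CD150-low cells had 2 with centred log-ratios, 3 with tertiles within each mouse, 3 with a split at the median, 0 in cells of 6000 to 10000 UMIs and 1 to 2 when a mouse was left out. CD48-low CD150-low cells had 1 with a split at the median and 0 to 1 when a mouse was left out, the former being Nfkbia and the latter Icam1 without wild-type mouse 2. Signs changed in CD48-high CD150-high cells for Nfkb1 (0.03 with centred log-ratios, 0.14 at 6000 to 10000 UMIs), Nfkb2 (0.07 with a split at the median), Ier3 (0.04 at 6000 to 10000 UMIs) and Icam1 (-0.34 with centred log-ratios). In CD48-high CD150-low cells they changed for Nfkb1 (-0.20 in low-cycle cells, -0.03 at 6000 to 10000 UMIs, -0.16 thinned), Tnfrsf13c (-0.20 with centred log-ratios), and Birc2 (0.05) and Jund (0.02) in low-cycle cells. In CD48-low CD150-low cells they changed for Nfkbia (0.01) and Birc3 (-0.08) with centred log-ratios and Ier3 (-0.02 in low-cycle cells, -0.48 at 6000 to 10000 UMIs). Leaving out a mouse moved Nfkb1 from -0.14 to 0.01, Nfkb2 from -0.55 to 0.24, Icam1 from -0.06 to 0.22 and Birc3 from -0.27 to 0.02 in CD48-high CD150-high cells. It moved Nfkb1 from -0.09 to 0.20 and Birc3 from -0.16 to 0.18 in CD48-high CD150-low cells, and Relb from -0.03 to 0.40 in CD48-low CD150-low cells. The Nfkbia interaction was 0.28 with a split at the median and -0.98 to 0.35 when a mouse was left out. Its genotype value turned to 0.01 with DESeq2 and 0.01 with tertiles within each mouse in CD48-high CD150-high, -0.14 with a split at the median in CD48-low CD150-high, and 0.04 with tertiles within each mouse and 0.03 with a split at the median in CD48-low CD150-low cells. When a mouse was left out it ran from -0.20 to 0.22, -0.06 to 0.40 and -0.08 to 0.05 in these gates, from -0.22 to 0.12 in cluster 1 and from -0.49 to 0.13 in cluster 2. The cause of these changes was not tested. No paired analysis of the genotypes was possible because each mouse carries its own hashtag and the genotypes share no animal, litter or other label. The gates were compared within mice, with the mouse as a block.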
